A study of Mus musculus with 4 samples.

Results

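Saa3 and 6 further genes that encode secreted proteins of myeloid cells and the acute-phase response were followed in MDSCs treated with EGCG. The 7 genes, Saa3, Hp, Retnlg, Wfdc21, Wfdc17, Prok2 and Slpi, were taken by symbol from the 53465 genes of the count table, and all 7 were among the 14682 genes with enough reads to be tested. The set was selected on the measured counts of Saa3, which were lower with EGCG in this comparison, and the other genes were added as secreted products of the same kind with results known. Accordingly, the difference in Saa3 is given as a description without a test, and nothing is supported by it. MDSCs are a mixture of immature granulocytic and monocytic cells found in hosts with tumors, 4T1 is a transplantable mammary carcinoma line, and EGCG (epigallocatechin-3-gallate) is the main catechin of green tea. All 4 libraries came from MDSCs of male BALB/c mice that were injected with 1000000 4T1 cells at 6 weeks of age and carried tumors. The spleen cells were isolated with beads against Gr-1, an epitope of Ly-6G and Ly-6C, so that neutrophil-like and monocyte-like cells are both retained. The cells were kept for 6 h in control medium (2 libraries) or in medium with 5 μg/mL EGCG (2 libraries). The labels place the sacrifice at day 21, whereas the sorting methods give a shorter interval after injection. No source names separate mice or wells for the libraries of a group, and p values then measure only the spread between these libraries.

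Acute-phase proteins are secreted in response to IL-1, TNF and IL-6, which act through the transcription factors NF-κB, STAT3 and C/EBP. The liver makes most of them, but myeloid cells make some of their own. Saa3 encodes serum amyloid A3, which in the mouse is made largely outside the liver, for example by macrophages, and which can act on Toll-like receptors. Hp encodes haptoglobin, which binds free hemoglobin for uptake through CD163 and is also stored in neutrophil granules. Slpi, Wfdc17 and Wfdc21 encode small proteins with WAP domains, the fold of several protease inhibitors. Slpi inhibits neutrophil elastase and cathepsin G. Retnlg encodes a resistin-like protein of granulocytes, and Prok2 encodes prokineticin 2 (Bv8), a chemokine-like protein that promotes angiogenesis and the mobilization of myeloid cells.

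The upstream sequences of 3 members are shown because Saa3 is the member with lower counts under EGCG, Wfdc17 is a member with higher counts, and Retnlg is the most abundant member. They are the RefSeq promoter windows of GRCm38 (250 bases before to 50 bases after the RefSeq start), trimmed to the part that precedes the first base of the gene in both RefSeq and GENCODE M21. Of the 7 members, 5 matched a window by symbol, and Hp and Wfdc21 did not. Capitals mark a match to the C/EBP motif TTNNGCAA, and each sequence runs 5′ to 3′ on the strand of the gene. The Saa3 sequence lies at chr7:46715701-46715926 on the minus strand, the Retnlg sequence at chr16:48872358-48872607 on the plus strand and the Wfdc17 sequence at chr11:83703806-83703990 on the plus strand.
Saa3: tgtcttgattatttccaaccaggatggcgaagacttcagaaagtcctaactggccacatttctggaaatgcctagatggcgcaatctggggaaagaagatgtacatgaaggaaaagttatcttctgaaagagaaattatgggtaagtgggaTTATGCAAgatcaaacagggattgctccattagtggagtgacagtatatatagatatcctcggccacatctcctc
Retnlg: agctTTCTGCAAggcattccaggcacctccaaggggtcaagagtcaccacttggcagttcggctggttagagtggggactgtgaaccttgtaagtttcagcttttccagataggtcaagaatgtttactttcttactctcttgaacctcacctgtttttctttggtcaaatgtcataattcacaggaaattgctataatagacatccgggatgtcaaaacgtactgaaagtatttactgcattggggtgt
Wfdc17: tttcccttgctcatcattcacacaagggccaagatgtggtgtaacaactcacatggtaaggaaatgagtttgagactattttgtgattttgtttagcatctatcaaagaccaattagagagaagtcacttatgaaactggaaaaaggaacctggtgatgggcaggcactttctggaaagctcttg

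The C/EBP motif was found once in the windows of Saa3, Retnlg and Slpi, and not in those of Wfdc17 and Prok2. Of 32851 promoter windows of 300 bases, 10.8% held this motif on either strand. The match in Saa3 starts 99 bases before the RefSeq start (TTATGCAA), that in Retnlg 246 bases before (TTCTGCAA) and that in Slpi 241 bases before (TTGAGCAA). The Slpi window lies within the GENCODE gene, which begins upstream of the RefSeq start. No window of the 5 members held the NF-κB motif searched (1.63% of all windows) or the STAT motif TTCNNNGAA (8.30%), which says only that these letters were not in these windows. The letters TATAAA were found in the windows of Wfdc17 and Prok2 (13.6% of all windows). In Wfdc17 they start 3 bases before the RefSeq start, within the GENCODE gene and outside the sequence shown, and in Prok2 they lie 46 bases before the start on the opposite strand. The motifs were searched on both strands without regard to overlap, and a match is not evidence of binding. They were chosen after the promoters had been seen, and nothing is read from how many members held a match.

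The libraries held between 17767318 and 18390385 counts. Replicates differed by more than sampling noise, with a mean chi-square per gene of 6.85 between the control libraries (14546 genes) and 6.64 between the EGCG libraries (14428 genes), against a value near 1 for repeated counting. Levels are in CPM, the counts relative to the TMM-scaled library size. The test between EGCG and control was the quasi-likelihood test of edgeR, with p values adjusted by Benjamini-Hochberg across the 14682 genes, and a gene with an adjusted p under 0.05 is called. In all, 22 genes were called (0.150%), 20 of them lower (0.136%) and 2 higher (0.0136%), and 0 of the 6 members other than Saa3 were among them. Markers of neutrophils were abundant in all libraries. Ly6g was at 943 and 1090 CPM in the control libraries and at 1200 and 965 CPM in the EGCG libraries. Monocyte markers were also present (summed level of 920 to 1005 CPM), and markers of B cells (summed level of 1707 to 1958 CPM) and of splenic macrophages (940 to 1014 CPM) were detected. Fewer cells of a type and less RNA per cell cannot be told apart in such bulk samples.

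Saa3 (ENSMUSG00000040026) lies on chromosome 7 of GRCm38 from 46711998 to 46715700 on the minus strand. Its counts were 1129 and 1205 in control replicates 1 and 2, and 853 and 843 in EGCG replicates 1 and 2. This was 61.8 and 67.4 CPM with control medium, and 47.0 and 47.2 CPM with EGCG. Both EGCG libraries were below both control libraries, by a gap of 14.6 CPM, and the EGCG replicates were nearly alike. The 95% exact Poisson intervals, which cover counting error only, ran from 58.3 to 65.5 CPM in control replicate 1, the lower control library, and from 44.1 to 50.5 CPM in EGCG replicate 2, the higher EGCG library. The mean was 64.6 ± 3.96 CPM (SD, n = 2) in the control group and 47.1 ± 0.108 CPM (SD, n = 2) in the EGCG treatment group. The fitted log2 fold change was -0.46 with a standard error of 0.09, which is 0.729 of the control level. This difference chose the gene, and no p is given for it. Leaving out control replicate 1 gave -0.51 and leaving out control replicate 2 gave -0.39, the extremes of the 4 cases. Part of the gene's sequence, 7.56% of its 31-base words, also occurs in transcripts of other genes, and no other gene model overlaps it.

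**Figure D1:**
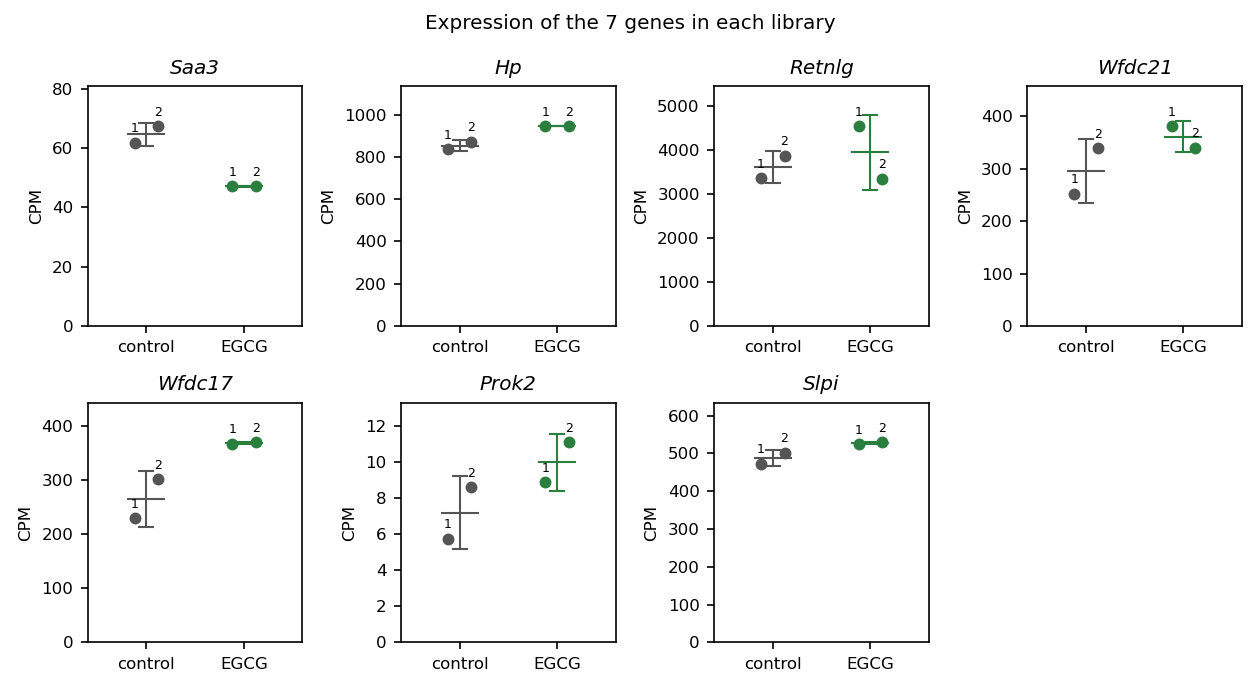
CPM of each of the 7 genes in the 2 control and 2 EGCG libraries (points, numbered by replicate), with the group mean and SD (bars); each vertical axis starts at 0 and has its own range. The EGCG libraries of Saa3 sit at 47.0 and 47.2 CPM, below the control libraries at 61.8 and 67.4, whereas the EGCG libraries of Wfdc17, Hp and Slpi sit above both control libraries and those of Retnlg lie on either side of them.

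The counts of Saa3 can also be described relative to those of other members within a library. For each 1000 reads of Hp there were 74.1 and 77.3 reads of Saa3 with control medium, but 49.8 and 49.9 with EGCG. Against 1000 reads of Slpi there were 131 and 134 reads of Saa3 with control medium, but 89.7 and 89.3 with EGCG. With Wfdc17 as the measure, the numbers were 270 and 223 with control medium, but 128.0 and 127.7 with EGCG. These ratios reuse the Saa3 counts that chose the set, and nothing is read from them.

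The other SAA genes were at or near 0. Saa1 and Saa2, the main circulating serum amyloid A genes of the liver, had 0 counts in every library. By counting error alone this allows up to 3 counts, or at most 0.168 CPM, per library. Sequence that these genes share with others, and reads left uncounted because of it, were not examined. Saa4, a constitutive member of the family, had 1 count in control replicate 2 and 0 in the other libraries. Of the SAA genes listed, Saa3 alone had enough reads to be tested.

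Among the 6 other members, all had a fitted log2 fold change above 0, as had 50.6% of all tested genes, and their median was 0.22 against 0.0031 for all tested genes. Of tested genes with up to 700 exonic bases 68.29% were above 0, of those with 700 to 1300 60.55% and of those with 1300 to 2100 63.55%. The medians were 0.13, 0.06 and 0.08, and all 6 members have such lengths. None of the 6 passed edgeR's test at an adjusted p under 0.05. Before adjustment 3 of the 6 (Wfdc17, Prok2 and Wfdc21) had a p under 0.05 and were higher, at a threshold passed by 5.22% of all tested genes in this direction and by 12.2% in either, and by DESeq2 1 (Wfdc17) of the 5 with an adjusted p was called, against 0.463% of all genes, Prok2 having none. In 5 of the 6 the groups had no overlap, all higher with EGCG, and 21.5% of tested genes were of this kind (42.7% in either direction). The members were chosen with these results known, and nothing is read from these counts. In each of the 7 members control replicate 1 was below control replicate 2, a relation that held for 49.7% of the tested genes, so that the size of every difference depends on which control library is used. The ratio of control replicate 2 to control replicate 1 ran from 1.045 (Hp) to 1.499 (Prok2).

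Wfdc17 (ENSMUSG00000069792), the gene of a WAP-domain protein known from activated macrophages and microglia, lies on chromosome 11 from 83703991 to 83706268 on the plus strand. It was at 229 and 302 CPM in the control libraries and at 367 and 370 CPM in the EGCG libraries, with 4186 to 6662 counts behind each value. The EGCG libraries were alike and lay above both control libraries, which were further apart from each other than the EGCG libraries were. The mean was 265.7 ± 51.5 CPM (SD, n = 2) in the control group and 368.5 ± 1.48 CPM (SD, n = 2) in the EGCG treatment group. The log2 fold change of 0.47 (standard error 0.10) had an adjusted p of 0.0886 by edgeR's quasi-likelihood test, in a range from 9.9e-06 to 0.650 over 14 alternatives, 5 of which were under 0.05 (3 of them with a library left out). Without control replicate 1 the log2 fold change was 0.29 (adjusted p of 0.270), and without control replicate 2 it was 0.69 (adjusted p of 9.9e-06). Such fits compare 1 library with 2, here and for the other genes, and the lone library is assumed to vary like those of the other group. The adjusted p was 0.00107 without EGCG replicate 1 and 0.000736 without EGCG replicate 2.

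Wfdc21 (ENSMUSG00000051748), located nearby on chromosome 11 from 83746940 to 83752642 and on the same strand, also encodes a small WAP-domain protein. It was at 252 and 339 CPM in the control libraries and at 382 and 340 CPM in the EGCG libraries. Control replicate 1 was the low library, and control replicate 2 and EGCG replicate 2 differed by only 1.06 CPM, which lies within counting error (95% Poisson intervals of 330 to 348 and 331 to 349 CPM). The log2 fold change was 0.29 (standard error 0.11, adjusted p of 0.329 by edgeR, in a range from 0.00123 to 0.956 over 14 alternatives). It was 0.10 without control replicate 1, 0.52 without control replicate 2 (adjusted p of 0.00123) and 0.37 without EGCG replicate 2 (adjusted p of 0.0224). For each 1000 reads of Wfdc21 there were 909 and 892 reads of Wfdc17 with control medium, and 963 and 1087 with EGCG. These genes were thus read in nearly equal number in every library, and low or high together in control replicates 1 and 2.

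Slpi (ENSMUSG00000017002) lies on chromosome 2 from 164354070 to 164389095 on the minus strand. Its level was 472 and 502 CPM in the control libraries and 525 and 529 CPM in the EGCG libraries. The groups did not overlap, but the gap of 22.3 CPM was smaller than the distance between the control libraries. The log2 fold change was 0.11 (standard error 0.07, adjusted p of 0.593 by edgeR, in a range from 0.458 to 0.960 over 14 alternatives). Serine proteases of neutrophils, Elane, Prtn3 and Ctsg, were measured beside Slpi, and 0 of 3 were called by edgeR in either direction (0 of 3 also at an unadjusted p under 0.05). Of these, Ctsg, encoding cathepsin G, was at 107 and 113 CPM in the control libraries and at 122 and 107 CPM in the EGCG libraries (log2 fold change of 0.06, standard error 0.08). Prtn3, encoding proteinase 3, had a log2 fold change of 0.04 (standard error 0.08).

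Hp (ENSMUSG00000031722) lies on chromosome 8 from 109575128 to 109579172 on the minus strand. It was at 835 and 872 CPM in the control libraries and at 945.2 and 945.7 CPM in the EGCG libraries. Both EGCG libraries were above both control libraries by a gap of 73.3 CPM, which was wider than the distance between the control libraries. The log2 fold change was 0.15 (standard error 0.08, adjusted p of 0.461 by edgeR, in a range from 0.373 to 0.918 over 14 alternatives), a difference of 10.8%. The receptor gene Cd163 had 32 and 21 counts with control medium, and 28 and 30 with EGCG, so that the receptor through which haptoglobin and hemoglobin are taken up was close to the limit of the test in these cells.

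Retnlg (ENSMUSG00000022651) lies on chromosome 16 from 48872621 to 48874496 on the plus strand and took between 0.331% and 0.449% of all counts. It was at 3361 and 3874 CPM in the control libraries and at 4554 and 3350 CPM in the EGCG libraries. The groups overlapped, with the highest and the lowest value both in the EGCG libraries. For Retnlg the log2 fold change was 0.13 (standard error 0.12, adjusted p of 0.724 by edgeR, in a range from 0.0651 to 0.984 over 14 alternatives), and it was -0.11 when EGCG replicate 1 was left out. Leaving out EGCG replicate 2 gave 0.33, leaving out control replicate 1 gave 0.03, and leaving out control replicate 2 gave 0.24. The mature neutrophil genes S100a8 (14460, 18160, 22840 and 19480 CPM in control replicates 1 and 2 and EGCG replicates 1 and 2) and Ly6g, like S100a9, were highest in EGCG replicate 1. Of the 7 mature neutrophil markers, the other 4 were not: Cxcr2, Csf3r and Il1r2 were highest in control replicate 2 and Mmp9 in EGCG replicate 2. The part of neutrophil content in the level of Retnlg was not tested. Of the words of Retnlg, 5.51% are shared with its relative Retnla, so a small part of the reads could belong to either gene. Retnla, known from alternatively activated macrophages, was far lower and was at 7.34 and 11.1 CPM in the control libraries and at 6.29 and 4.59 CPM in the EGCG libraries (log2 fold change of -0.76, standard error 0.22, adjusted p of 0.196 by edgeR). Retn, the resistin gene, had 27 to 32 counts in each library, and its log2 difference was -0.16 (standard error 0.31).

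Prok2 (ENSMUSG00000030069) lies on chromosome 6 from 99711299 to 99726392 on the minus strand and had the fewest reads of the 7 genes. Its counts were 105 and 154 with control medium, and 161 and 198 with EGCG, or 5.75 and 8.62 CPM against 8.88 and 11.1 CPM. The groups did not overlap, but control replicate 2 and EGCG replicate 1 differed by 0.262 CPM, within counting error (95% Poisson intervals of 7.31 to 10.1 and 7.56 to 10.4 CPM). The log2 fold change was 0.48 (standard error 0.19, adjusted p of 0.351 by edgeR, in a range from 0.0396 to 0.948 over 13 alternatives). It was 0.22 without control replicate 1, 0.80 without control replicate 2 (adjusted p of 0.0396), and 0.63 or 0.31 when EGCG replicate 1 or 2 was left out. Prok1, the other prokineticin gene, had 1 count in control replicate 2 and 0 in the other libraries. Of the receptor genes, Prokr1 had 8 to 19 counts in a library and was tested, and Prokr2 had 0 to 2 counts.

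**Figure D2:**
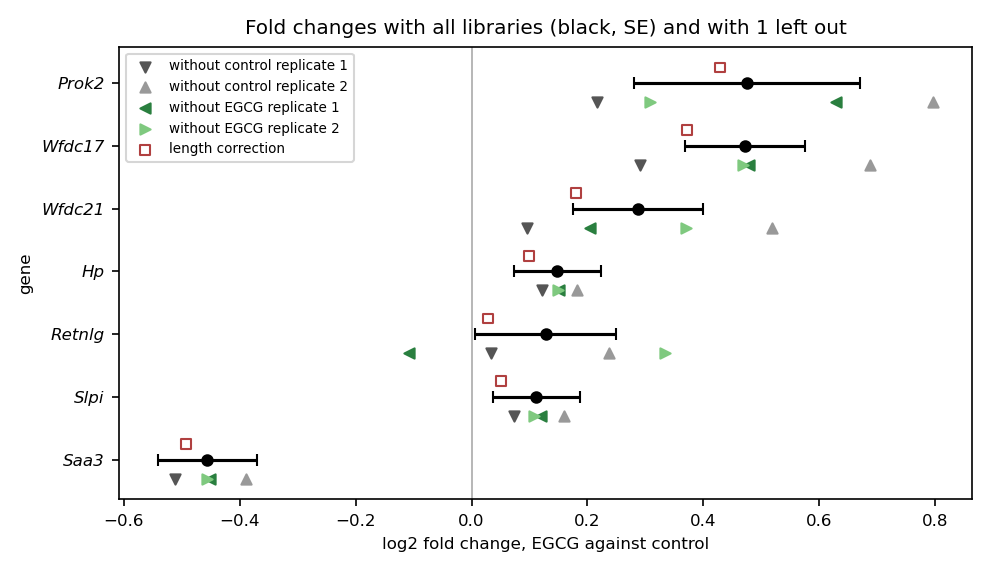
Log2 fold change of each gene between EGCG and control with all 4 libraries (black points, with the standard error), with 1 library left out (triangles) and with a correction for exonic length (open squares). Saa3 is below 0 in every case, the values of Wfdc17, Wfdc21 and Prok2 are lowest without control replicate 1 and highest without control replicate 2, and Retnlg crosses 0 without EGCG replicate 1.

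Fold changes in these libraries varied with gene length (Spearman correlation of -0.285 across 14655 tested genes, which are not independent replicates). By exonic length, 3 of the 7 members are short. Retnlg, Wfdc17 and Wfdc21 have 593, 533 and 434 exonic bases in 1 transcript each. The other members have 1180 to 2606, merged over 3 or 4 transcripts. The 1110 tested genes of up to 700 bases had a median log2 fold change of 0.13. After a length correction in each library the log2 fold change was 0.37 for Wfdc17, 0.18 for Wfdc21, 0.03 for Retnlg, 0.05 for Slpi, 0.10 for Hp and 0.43 for Prok2. For Saa3, with 2606 exonic bases merged over 3 transcripts, it was -0.49. A single transcript can be shorter than the merged length on which this correction rests, and the correction by transcript length was not tested. The part of RNA or library quality in this trend was not tested.

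Per kilobase of exon, the members spanned a range from 4.48 to 6382 CPM per kb in their means over the 4 libraries. Retnlg had rank 4 among 14655 genes ranked by this level (6382 ± 958 CPM per kb, SD, n = 4). Wfdc21 (756 ± 125), Wfdc17 (595 ± 125), Hp (560 ± 34.5) and Slpi (430 ± 21.9 CPM per kb) followed, at ranks 52, 75, 82 and 114. Saa3 (21.4 ± 3.98 CPM per kb) was at rank 2490, and Prok2 (4.48 ± 1.14 CPM per kb) at rank 7039. Wfdc21 and Wfdc17 overlapped in their ranges over the libraries, as did Wfdc17 and Hp, with Hp above Wfdc17 in 1 of the 4 libraries. The other neighbors in this order did not overlap. The models of Saa3, Hp, Slpi and Prok2 hold 3 or 4 transcripts each, those of Retnlg, Wfdc17 and Wfdc21 hold 1, and the full exonic length used here can exceed that of a single transcript.

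**Figure D3:**
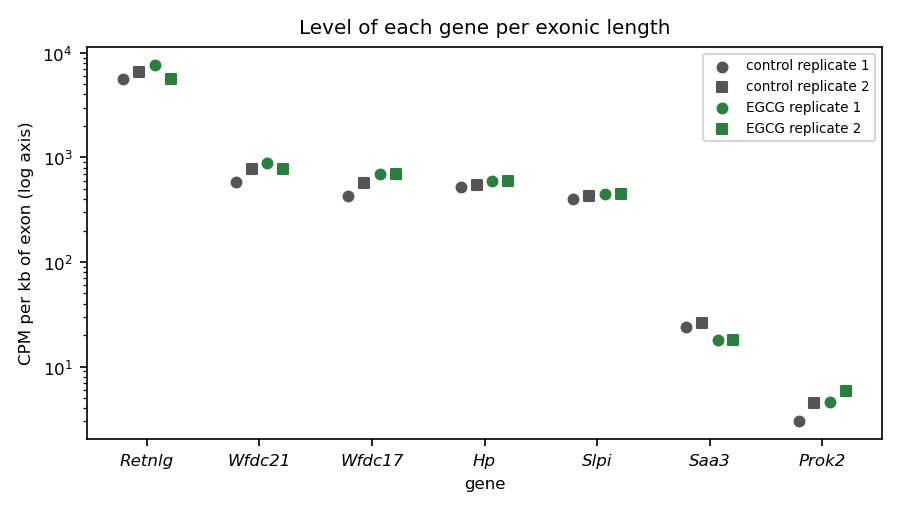
Level of each gene as CPM per kilobase of exon in the 4 libraries, on a log axis, in the order of the mean. Retnlg stands at 5650 to 7679 CPM per kb and Saa3 at 18.1 to 25.9 CPM per kb, between Slpi and Prok2.

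Of the other acute-phase genes, 14 of 28 had enough reads to be tested. By edgeR's test 0 of the 14 were called in either direction, and 2 were lower and 1 was higher at an unadjusted p under 0.05 (7.02% and 5.22% of all tested genes). Their median log2 fold change was -0.20, and it ran from -0.24 (without control replicate 2) to -0.12 (without EGCG replicate 1) with a library left out. The 2 with the smallest p were Serpina3g, encoding a serine protease inhibitor of leukocytes, and C3, encoding the central complement component. Serpina3g was at 21.9 and 22.1 CPM in the control libraries and at 15.33 and 18.03 CPM in the EGCG libraries (log2 fold change of -0.40, standard error 0.12, adjusted p of 0.210 by edgeR). C3 was at 1928 and 1953 CPM in the control libraries and at 1619 and 1620 CPM in the EGCG libraries (log2 fold change of -0.26, standard error 0.08, adjusted p of 0.217 by edgeR). For both genes the EGCG libraries were below the control libraries, and over the 14 genes the groups did not overlap for 6 that were lower and 1 that was higher (21.2% and 21.5% of all tested genes). Lcn2, encoding the iron-binding acute-phase protein lipocalin 2 and named here after its values were seen, was at 2093 and 2355 CPM in the control libraries and at 2327 and 2066 CPM in the EGCG libraries, and the groups overlapped. Of the 28 genes, 8 had 0 counts in all libraries, among them the liver genes Crp, Fga and Fgg.

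Among the other genes of WAP-domain proteins and protease inhibitors, 7 of 20 in the table were tested, 0 were called by edgeR and 0 had an unadjusted p under 0.05. Wfdc18 had 18 and 14 counts with control medium, and 9 and 7 with EGCG (log2 fold change of -0.98, standard error 0.47), and the 9 other WAP-domain genes of the list had at most 4 counts in a library. Serpine2, encoding an inhibitor of thrombin and urokinase, was at 3.29 and 3.75 CPM in the control libraries and at 4.36 and 4.31 CPM in the EGCG libraries (log2 fold change of 0.30, standard error 0.21).

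For the receptors and the genes that handle the members' proteins, 15 of 16 were tested. By edgeR 1 was lower and 0 were higher at an adjusted p under 0.05, beside 0.136% and 0.0136% of all tested genes. The median log2 fold change was 0.0075, with values from -0.028 to 0.0059 when a library was left out. It was -0.03 with library size only and -0.02 with the length correction. The called gene was Lrp1, which encodes a scavenger receptor for protease-inhibitor complexes and for heme bound to hemopexin. Lrp1 went from 326 and 224 CPM in the control libraries to 153 and 176 CPM in the EGCG libraries (log2 fold change of -0.75, standard error 0.13, adjusted p of 0.0427 by edgeR). Both EGCG libraries were below both control libraries, and control replicate 1 was well above control replicate 2. Its adjusted p ran from 1.71e-11 to 0.593 over 14 alternatives, of which 8 were under 0.05 (4 of them with a library left out), and its log2 fold change was -0.44 without control replicate 1 (adjusted p of 0.00978). Tlr2 (log2 fold change of -0.11, standard error 0.08) and Tlr4 (-0.04, standard error 0.08), the Toll-like receptors on which SAA proteins can act, were not called by edgeR. Fpr2, a formyl peptide receptor that binds serum amyloid A, was at 792 and 965 CPM in the control libraries and at 1094 and 877 CPM in the EGCG libraries (log2 fold change of 0.17, standard error 0.11).

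Of the genes of upstream signaling, 25 of 26 were tested. By edgeR 1 was lower and 0 were higher at an adjusted p under 0.05, beside 0.136% and 0.0136% of all tested genes. The median log2 fold change was -0.04. It was -0.08 with library size only and -0.03 with the length correction. Leaving out control replicate 2 turned this median to 0.0031, and leaving out EGCG replicate 1 gave -0.0074. The called gene, Il6st, encodes gp130, the signaling subunit of the IL-6 receptor, and was at 66.2 and 53.9 CPM in the control libraries and at 39.3 and 39.8 CPM with EGCG. The fitted log2 value was -0.60 (standard error 0.10, adjusted p of 0.0390 by edgeR, in a range from 1.61e-05 to 0.562 over 14 alternatives, 11 of them under 0.05, including 4 with a library left out). Cebpd and Cebpb encode C/EBP factors of the acute-phase response and are named here after their values were seen. Cebpd was at 264 and 262 CPM in the control libraries and at 338 and 308 CPM in the EGCG libraries (log2 fold change of 0.30, standard error 0.08, adjusted p of 0.138 by edgeR). Cebpb was at 414 and 406 CPM in the control libraries and at 440 and 515 CPM in the EGCG libraries (log2 fold change of 0.22, standard error 0.08, adjusted p of 0.324 by edgeR). The other C/EBP genes of the list, Cebpa and Cebpe, had log2 fold changes of 0.02 and 0.0014 (standard errors 0.08 and 0.07). Over the whole list the groups did not overlap for 7 genes that were lower and 4 that were higher with EGCG, out of 25, beside 21.2% and 21.5% of all tested genes.

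**Figure D4:**
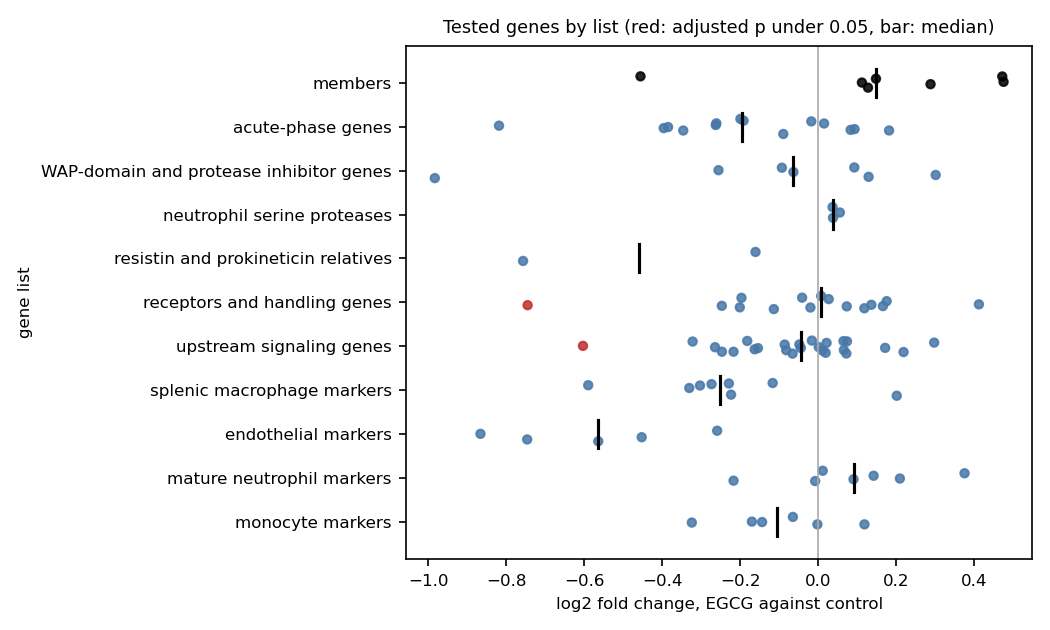
Log2 fold change between EGCG and control for the 7 members, for the tested genes of the related lists and for marker genes of 4 cell types (points), with the median of each list (bars); red points have an adjusted p under 0.05. The called genes are Lrp1 among the receptors and Il6st among the upstream genes, and the 5 endothelial markers and 7 of 8 splenic macrophage markers lie below 0.

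Markers of other cell types are set beside these values. Of 8 splenic macrophage markers, 7 had a fitted value below 0, with a median log2 fold change of -0.25 and 0 called by edgeR (at an unadjusted p under 0.05, 3 were below and 1 was above control, beside 7.02% and 5.22% of all tested genes). Their summed level was 940 and 1006 CPM in the control libraries and 967 and 1014 CPM in the EGCG libraries, most of it from Slc40a1, which had the fitted value above 0. Cd5l, a defining gene of these macrophages, was at 55.6 and 40.2 CPM in the control libraries and at 28.8 and 34.9 CPM in the EGCG libraries. All 5 endothelial markers had values below 0, with a median log2 fold change of -0.56 and 0 called by edgeR (4 of 5 at an unadjusted p under 0.05, beside 7.02% of all tested genes), and groups that did not overlap (21.2% of all tested genes were lower in this way), and their sum was 122.5 and 132.5 CPM in the control libraries and 99.3 and 104.5 CPM in the EGCG libraries, most of it from Pecam1. No marker of these 2 lists was at 0. The summed mature neutrophil markers were 45530 and 55460 CPM in the control libraries and 63730 and 55640 CPM in the EGCG libraries, with 5 of 7 fitted values above 0 and 0 called by edgeR (1 at an unadjusted p under 0.05). Of 6 monocyte markers, 5 had values below 0 (median of -0.10), and F13a1 was at 96.9 and 82.1 CPM in the control libraries and at 70.8 and 72.2 CPM in the EGCG libraries. The 2 tested markers of 4T1 epithelium were above 0 without overlap, as were 21.5% of all tested genes, at a low level (Epcam at 3.56 and 3.30 CPM with control medium, 5.07 and 5.54 CPM with EGCG, log2 difference of 0.63), and Krt19 was at 0. Of 5 B cell markers, 4 were above 0 (median of 0.15). The medians of the immature neutrophil, dendritic cell, T cell, NK cell, erythroid, platelet and basophil lists lay between -0.09 and 0.14, no fibroblast marker had enough reads, and 0 markers of the 14 lists were called by edgeR. The part of these cells in the values of Saa3 or of the other members was not tested.

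The genes whose pattern over the 4 libraries was most like that of Saa3 were found by the distance between log2 CPM profiles centred on their means, among 13625 tested genes with at least 10 counts in every library. The nearest were the processed pseudogene AC162893.1 (distance of 0.0185 log2 units), Oas2 (0.0266), Ccdc14 (0.0402), Sele (0.0485) and Ptgs1 (0.0498). AC162893.1 and Ccdc14 were low, at 2.2 to 3.7 CPM. For all 5 genes the standard error of the log2 fold change (0.08 to 0.25) was larger than the distance, so their order is not resolved. Oas2, an interferon-induced oligoadenylate synthetase, was at 92.3 and 101.6 CPM in the control libraries and at 69.1 and 70.4 CPM in the EGCG libraries. Sele, encoding E-selectin of activated endothelium, was at 6.63 and 6.995 CPM in the control libraries and at 5.02 and 5.10 CPM in the EGCG libraries. Ptgs1, encoding cyclooxygenase 1, was at 55.4 and 61.7 CPM in the control libraries and at 44.2 and 43.2 CPM in the EGCG libraries. The likeness covers 4 libraries only, and without 1 library at most 1 of the 5 was again among the nearest. Within the set, the nearest member to Saa3 was Slpi, at a distance of 0.567, with 62.5% of the candidate genes nearer, and the farthest was Prok2, at 1.018, with 97.8% nearer.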

How the data were processed

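RNA-seq counts of 4 libraries (2 control, 2 EGCG), grouped by their labels, were used. The authors used STAR 2.6.0c for alignment to GRCm38 and featureCounts 1.6.2 with Ensembl annotation for gene counts without regard to strand, and deposited whole-number counts without normalization. All columns belonged to these samples and all lines named a gene.

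From these counts, genes were filtered with edgeR's filterByExpr (minimum count of 10), scaled by TMM, and tested with the quasi-likelihood functions of edgeR 4.0.16, the test that the study's methods name, run with the older (legacy) estimation, with Benjamini-Hochberg adjustment over 14682 genes and a threshold of 0.05. The standard error is the log2 fold change divided by the square root of F. With 2 libraries against 2, the groups are too small for an exact permutation test. Positions and exonic lengths came from GENCODE M21 (GRCm38) and promoters from RefSeq (GRCm38.p6). The length correction was a loess fit with a span of 0.4. log2 CPM profiles used a prior count of 2.

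The members and gene lists (acute-phase, WAP-domain and protease inhibitor, neutrophil protease, resistin and prokineticin, receptor, upstream signaling and 14 cell type marker lists) were chosen with earlier results of these data known, and the motifs after the promoters had been seen. Named genes are the members, the called genes of each list or else its 2 genes with the smallest p, the members' relatives and receptors, and the 5 genes nearest to Saa3. Lcn2, Cebpa, Cebpb, Cebpd, Cebpe, Crp, Fga, Fgg and the cell type markers named fall outside this rule and were chosen after their values were seen. Alternatives were 2 other filters, 3 other scalings, robust and newer fits, DESeq2 1.42.0, the length correction, a replicate block, another prior count, and leaving out each library. Other tools were R 4.3.3, Python 3.11.15 and pandas 2.3.3. Protein sequences were not used here.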

Additional observations from a re-analysis of the deposited data

How the results depend on the processing

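The log2 fold change of Saa3, a description, ran from -0.49 to -0.45 over 10 alternatives and from -0.51 to -0.39 with a library left out, the latter without control replicate 2. No filter on low counts left 0 lower and 0 higher genes, with 0 list genes called. The stricter filter gave 11 lower and 0 higher (0 list genes), library size only 135 lower and 16 higher, upper-quartile scaling 9 lower (0 list genes), the robust fit 49 lower and 14 higher (1 list gene), the newer fit 25 lower and 6 higher, DESeq2 54 lower and 14 higher, and the length correction 14 lower and 3 higher (1 list gene). With a library left out, 72 to 235 genes were lower, 5 to 119 higher and 3 to 5 list genes called. Among the members other than Saa3, Wfdc17 alone was called in fits of all libraries. It was called with library size only (adjusted p of 0.0177 by edgeR) and with DESeq2 (adjusted p of 0.0109). The members were chosen with results known, and nothing is read from these calls. Fits with a library left out have 1 library in a group and take the spread from the other group. Of the 6 other members, Retnlg alone turned, to -0.11 without EGCG replicate 1 (range of -0.11 to 0.33). Of the 5 genes nearest to Saa3, 4 or 5 were shared under other settings and 0 to 1 with a library left out. The cause of these shifts was not tested. With the replicate block 24 genes were lower and 6 were higher, and 0 of the 6 members other than Saa3 were called. The log2 fold change of Saa3 was -0.45 with this block. The replicate numbers do not pair the libraries by any label (correlation of same-numbered deviations of 0.0336). Groups of 2 libraries limit the precision of all members. The standard error was largest for Prok2 (0.19), the member with the fewest reads.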
